A study of Homo sapiens with 6 samples.

Results

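The 10 genes that carry the nucleoside drug gemcitabine into cells, activate it, break it down or answer to it were examined in the RNA of a pancreatic cancer cell line. They are SLC29A1, SLC29A2, DCK, CMPK1, CDA, DCTD, RRM1, RRM2, RRM2B and TYMS, and they were found by their symbols among the 58735 genes of the deposited table, each matching 1 line. The rule used the symbols alone.

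RNA sequencing was performed on AsPC-1 cells, an established line of human pancreatic cancer, in 6 libraries. The Vector group (n = 3) is labelled as WT genotype with an empty virus, and the OE-MMP28 group (n = 3) as MMP28 overexpression with a lentivirus that carries MMP28, a secreted matrix metalloproteinase. Per the study's methods, the virus also carried GFP and puromycin resistance and stable populations were selected with puromycin, so both groups share infection and selection. No label names a gemcitabine treatment, and none says whether the 3 samples of a group came from separate cultures, so p-values measure only the spread between these samples, which may be technical. Total counts ranged from 13633249 to 16691458 per library, and a count of 0 allows up to 0.180 to 0.220 CPM (counts scaled to the library total), a limit for counting error alone, since PCR copies of a molecule were not told apart.

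Gemcitabine is a fluorinated analogue of deoxycytidine and a standard drug against pancreatic cancer. As background, it enters cells through nucleoside transporters, is phosphorylated stepwise by deoxycytidine kinase and by UMP/CMP kinase, and is removed by deamination. Its diphosphate blocks ribonucleotide reductase, the enzyme that makes deoxynucleotides, its triphosphate is built into DNA, and a deaminated product can inhibit thymidylate synthase. The same proteins serve the cell's own supply of DNA precursors, which rises when cells copy their DNA.

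The labels were checked first. MMP28 was at 5.17, 9.11 and 8.43 FPKM (fragments scaled to gene length and library size) in Vector replicates 1, 2 and 3. In OE-MMP28 it was at 13.1, 13.9 and 15.1 FPKM, and the groups did not overlap (log2 fold change 0.90, edgeR adjusted p = 0.00226). All 5 epithelial markers examined (KRT8, KRT18, KRT19, EPCAM and CDH1) were present, with a summed level of 2578 to 3518 FPKM in Vector and 3516 to 4303 FPKM in OE-MMP28. Within this list KRT19 rose by 0.71 on the log2 scale (edgeR adjusted p = 0.00175) and CDH1, E-cadherin, fell by 0.59 (edgeR adjusted p = 0.0113), and their part in the results below was not tested. The 12 markers of leukocytes, fibroblasts, endothelium, acinar and islet cells summed to 1.09 to 1.24 FPKM in Vector and to 0.878 to 1.06 FPKM in OE-MMP28. Of these, PRSS1, CPA1, INS and GCG were at 0 in all 6 libraries and the leukocyte marker PTPRC had at most 1 count. CD14, a further leukocyte marker, was present at 30, 22 and 28 counts in Vector and 22, 17 and 19 counts in OE-MMP28. Its log2 fold change was -0.60 (edgeR adjusted p = 0.243). The endothelial marker PECAM1 was higher in OE-MMP28, at 0, 4 and 4 counts in Vector and 13, 21 and 30 counts in OE-MMP28, and its part was not tested either.

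Of the 10 genes, RRM1 and TYMS rose in OE-MMP28, RRM2B fell, and the other 7 did not pass the test. A gene is said here to rise or fall where its adjusted p was under 0.05 in edgeR (quasi-likelihood test, Benjamini-Hochberg over all 15319 genes tested), among which 11.7% rose, 11.6% fell and 23.4% did either. All 10 genes passed the filter on low counts, with 216 to 3078 counts in each library. The same 3 genes had FPKM groups that did not overlap, 2 of them higher and 1 lower, beside 19.0% and 19.1% of all genes tested and 38.1% in either direction. The fitted log2 fold change was above 0 for 9 of the 10, with a median of 0.28, whereas 51.2% of all genes tested were above 0 and their median was 0.014. The 10 genes differ in abundance and some share a process, so these counts describe the list and carry no test. In RNA of whole cultures, a change in the share of cells that express a gene and a change in RNA per cell cannot be told apart.

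**Figure D1:**
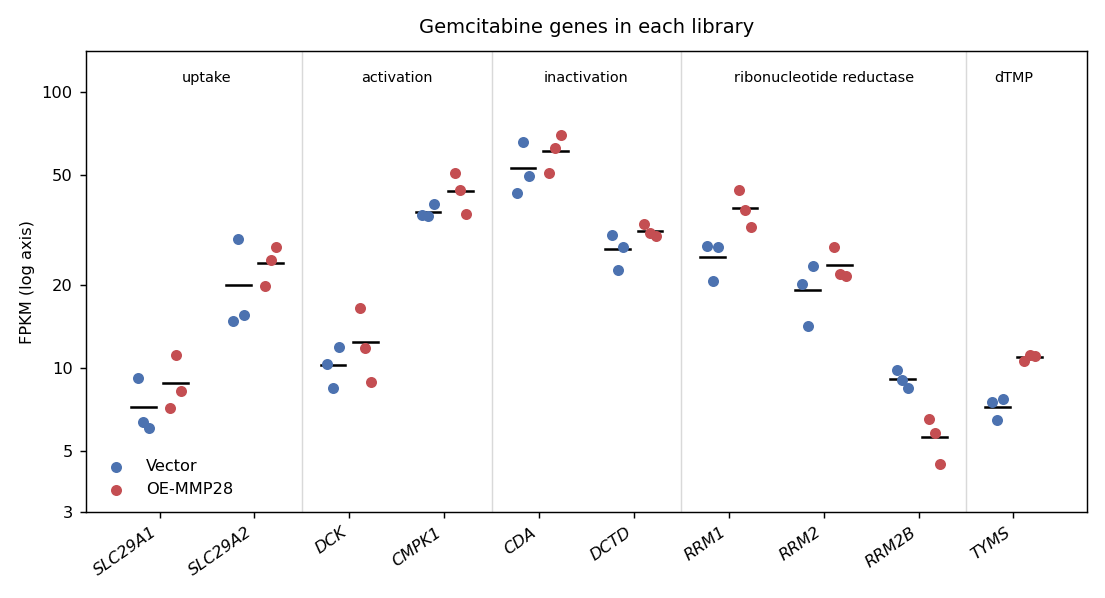
Levels of the 10 genes in FPKM on a log axis, 1 point per library (blue, Vector, n = 3; red, OE-MMP28, n = 3; bars, group means), ordered by role. The 3 OE-MMP28 points lie above all Vector points for RRM1 and TYMS and below them for RRM2B, and the groups overlap for the other 7 genes.

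The uptake genes encode equilibrative nucleoside transporters, which let nucleosides and their analogues cross the plasma membrane along the concentration gradient. SLC29A1 (ENSG00000112759, chr6:44219505-44234151, plus strand, build GRCh38), the transporter held to carry most gemcitabine, was at 9.21, 6.36 and 6.06 FPKM in Vector replicates 1, 2 and 3 and at 7.17, 11.1 and 8.22 FPKM in OE-MMP28 replicates 1, 2 and 3. Vector replicate 1 lay above OE-MMP28 replicates 1 and 3, so the groups overlapped. The group means were 7.21 ± 1.74 and 8.83 ± 2.04 FPKM (SD, n = 3 each), and the log2 fold change was 0.30 with a standard error (SE) of 0.20 and a 95% interval from -0.10 to 0.71 (edgeR adjusted p = 0.277). Left-out libraries moved it between 0.093 (without OE-MMP28 replicate 2) and 0.52 (without Vector replicate 1), and it did not pass in either fit. SLC29A2 (ENSG00000174669, chr11:66362521-66372214, minus strand), its more broadly selective relative, was at 14.8, 29.2 and 15.6 FPKM in Vector and at 19.8, 24.5 and 27.4 FPKM in OE-MMP28. Vector replicate 2 held the highest value of all 6 libraries, while the other two Vector libraries held the lowest. With all libraries the log2 fold change was 0.28 (SE 0.21, interval -0.17 to 0.73, edgeR adjusted p = 0.372). Without Vector replicate 2 it was 0.67 (edgeR adjusted p = 0.00902), so this library decided whether SLC29A2 passed. AP001107.9, an antisense gene that shares 10.3% of the exon length of SLC29A2, rose by 0.58 on the log2 scale (edgeR adjusted p = 0.0292, called in 10 of 18 alternative fits) at 173 to 333 counts. Whether reads were counted by strand is not given in the sources used here, and without strand the reads of such a pair cannot be told apart.

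The activating kinases gave similar estimates with overlapping groups. DCK (ENSG00000156136, chr4:70992538-71030914, plus strand) encodes deoxycytidine kinase, which adds the first phosphate to gemcitabine and limits the rate of its activation. Its level was 10.3, 8.46 and 11.9 FPKM in Vector and 16.4, 11.8 and 8.91 FPKM in OE-MMP28, so OE-MMP28 replicate 1 stood above all other libraries while OE-MMP28 replicate 3 lay below 2 of the 3 Vector libraries. The log2 fold change of DCK was 0.29 (SE 0.20, interval -0.12 to 0.70, edgeR adjusted p = 0.316), and without OE-MMP28 replicate 1 it was 0.025 (edgeR adjusted p = 0.940). MOB1B, which lies on the same strand and shares 6.17% of the exon length of DCK, fell by 0.58 on the log2 scale (edgeR adjusted p = 0.0304, called in 12 of 18 alternative fits) at 331 to 647 counts. CMPK1 (ENSG00000162368, chr1:47333797-47378839, plus strand), the UMP/CMP kinase that adds the next phosphate, was at 35.7, 35.4 and 39.0 FPKM in Vector and at 50.6, 43.9 and 36.0 FPKM in OE-MMP28. OE-MMP28 replicate 3 lay within the Vector range and the other two OE-MMP28 libraries above it. The fitted difference of CMPK1 was 0.25 (SE 0.15, interval -0.06 to 0.57, edgeR adjusted p = 0.240), with 0.12 when OE-MMP28 replicate 1 was left out.

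Inactivation runs through deaminases, which act on the free drug (CDA) or on its monophosphate (DCTD). CDA (ENSG00000158825, chr1:20588948-20618908, plus strand) encodes cytidine deaminase and was at 42.9, 65.8 and 49.5 FPKM in Vector and at 50.6, 62.4 and 69.4 FPKM in OE-MMP28. Vector replicate 2 exceeded 2 of the 3 OE-MMP28 libraries. Group means were 52.7 ± 11.8 and 60.8 ± 9.51 FPKM (SD, n = 3 each), with a log2 fold change of 0.22 (SE 0.18, interval -0.15 to 0.59, edgeR adjusted p = 0.407). Without Vector replicate 1 the value was 0.092, and without Vector replicate 2 it was 0.41. DCTD (ENSG00000129187, chr4:182890060-182917936, minus strand) encodes dCMP deaminase, which also feeds dUMP to thymidylate synthase. It was at 30.3, 22.7 and 27.4 FPKM in Vector and at 33.1, 30.7 and 30.0 FPKM in OE-MMP28, where the lowest OE-MMP28 library lay just under the highest Vector library. Its log2 fold change was 0.23 (SE 0.15, interval -0.08 to 0.55, edgeR adjusted p = 0.281), with 0.12 when Vector replicate 2 was left out.

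Ribonucleotide reductase is built from a large subunit, RRM1, and a small subunit, which is RRM2 in cells that copy their DNA and RRM2B in resting or damaged cells. RRM1 is the main target of gemcitabine diphosphate. The 3 genes of the enzyme gave 3 different outcomes, a rise for RRM1, no call for RRM2 and a fall for RRM2B. RRM1 (ENSG00000167325, chr11:4094707-4138876, plus strand) was at 27.6, 20.5 and 27.4 FPKM in Vector and at 43.9, 37.3 and 32.4 FPKM in OE-MMP28, so every OE-MMP28 library lay above every Vector library. Its mean rose from 25.2 ± 4.02 to 37.9 ± 5.76 FPKM (SD, n = 3 each), a log2 fold change of 0.60 (SE 0.16, interval 0.26 to 0.93, edgeR adjusted p = 0.0108) or 1.51-fold (interval 1.20 to 1.91). The call held in 15 of 18 alternative fits, with adjusted p between 0.00456 and 0.0577, and was lost without OE-MMP28 replicate 2 (edgeR adjusted p = 0.0503) and under limma on FPKM.

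RRM2 (ENSG00000171848, chr2:10120698-10131419, plus strand), the subunit that holds the free radical used in catalysis, was at 20.0, 14.1 and 23.4 FPKM in Vector and at 27.4, 21.9 and 21.5 FPKM in OE-MMP28. Vector replicate 3 lay above OE-MMP28 replicates 2 and 3. Its log2 fold change was 0.31 (SE 0.17, interval -0.06 to 0.67, edgeR adjusted p = 0.216), and ranged from 0.13 without Vector replicate 2 to 0.47 without Vector replicate 3. RRM2B (ENSG00000048392, chr8:102204502-102239118, minus strand) was at 9.79, 9.02 and 8.41 FPKM in Vector and at 6.50, 5.81 and 4.50 FPKM in OE-MMP28. The lowest Vector library was above the highest OE-MMP28 library, and the mean fell from 9.07 ± 0.687 to 5.60 ± 1.01 FPKM (SD, n = 3 each). The log2 fold change of RRM2B was -0.69 (SE 0.17, interval -1.03 to -0.34, edgeR adjusted p = 0.00551), or 0.621-fold. The call held in 16 of 18 alternative fits, and the exceptions are those that removed the shift of neighbouring genes, described below. The RRM2 pseudogenes RRM2P2, RRM2P4 and RRM2P3 had at most 3, 2 and 0 counts, and AC007240.1, which shares 20.2% of the exon length of RRM2 on the same strand, had 14 to 29. As the handling of reads that match several places is not given, what the pseudogenes take from the counts of RRM2 was not tested. The effect of the overlap with AC007240.1 was not tested either.

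TYMS (ENSG00000176890, chr18:657604-673578, plus strand) encodes thymidylate synthase, which makes dTMP from dUMP. It was at 7.52, 6.47 and 7.72 FPKM in Vector and at 10.6, 11.1 and 11.0 FPKM in OE-MMP28. The OE-MMP28 libraries were nearly level with each other and all above the Vector libraries. The mean rose from 7.24 ± 0.671 to 10.9 ± 0.297 FPKM (SD, n = 3 each), a log2 fold change of 0.60 (SE 0.17, interval 0.25 to 0.95, edgeR adjusted p = 0.0130) or 1.52-fold. The call of TYMS held in 16 of 18 alternative fits, with adjusted p between 0.00620 and 0.0714, and was lost without Vector replicate 2 (edgeR adjusted p = 0.0507) and without OE-MMP28 replicate 2 (edgeR adjusted p = 0.0714). ENOSF1 lies on the other strand and shares 39.1% of the exon length of TYMS, at 1237 to 1920 counts beside 216 to 458 for TYMS. Its log2 fold change was 0.14 (edgeR adjusted p = 0.570), and the antisense gene TYMSOS had 3 to 11 counts. As the strand setting is not given in the sources used here, the counts of TYMS and ENOSF1 are uncertain where the genes overlap.

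The promoters of RRM1 and TYMS, which rose, and of RRM2, the partner of RRM1 in the enzyme, are shown because genes of DNA precursor synthesis are known to be switched on at the start of DNA replication, in part through E2F factors, the CCAAT-binding factor NF-Y and the CHR element. Each is the 250 bases before the transcription start in RefSeq, build GRCh38.p14, at chr11:4094435-4094684 (RRM1), chr2:10122489-10122738 (RRM2) and chr18:657403-657652 (TYMS), all read on the plus strand. Capitals mark CCAAT in RRM1 and RRM2 and, in TYMS, the reverse complement of the E2F spelling TTTCCCGC.
RRM1: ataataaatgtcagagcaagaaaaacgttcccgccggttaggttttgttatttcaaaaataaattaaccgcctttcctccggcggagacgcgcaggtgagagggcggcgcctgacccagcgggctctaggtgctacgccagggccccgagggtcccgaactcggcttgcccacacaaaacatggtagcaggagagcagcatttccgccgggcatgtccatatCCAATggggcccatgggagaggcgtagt
RRM2: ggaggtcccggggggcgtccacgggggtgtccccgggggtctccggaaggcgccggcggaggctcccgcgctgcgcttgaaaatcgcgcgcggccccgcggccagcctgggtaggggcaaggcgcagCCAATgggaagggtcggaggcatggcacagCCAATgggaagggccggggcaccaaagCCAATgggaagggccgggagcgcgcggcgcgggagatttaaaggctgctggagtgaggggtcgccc
TYMS: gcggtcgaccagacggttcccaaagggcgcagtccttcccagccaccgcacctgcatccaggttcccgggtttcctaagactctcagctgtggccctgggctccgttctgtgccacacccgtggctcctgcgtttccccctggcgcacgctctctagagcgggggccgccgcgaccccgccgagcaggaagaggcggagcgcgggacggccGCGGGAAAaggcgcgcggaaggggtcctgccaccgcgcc

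RRM2 held CCAAT 3 times, at 123, 93 and 66 bases before the start, and RRM1 held it once, 28 bases before the start. The E2F match of TYMS lay 39 to 32 bases before the start on the minus strand. Starts here are those of RefSeq, which differ from the starts of the counted genes given above. By the latter, the RRM2 window lies inside its gene, as does the end of the TYMS window with its E2F match. RRM1 also held the CHR spelling TTTGAA on the minus strand, 199 to 194 bases before the start, in lower case above. Both strands were searched for TTTGAA, for 4 E2F spellings (TTTCGCGC, TTTGGCGC, TTTCCCGC and TTTGCCGC) and for CCAAT, and no matches in these promoters overlapped each other. Of 27305 RefSeq promoters of the same length, 33.0% held CCAAT, 13.6% TTTGAA and 2.79% an E2F spelling. Promoters of 8 of the 10 genes were in the table (SLC29A2 and RRM2B were not analysed here), and SLC29A1, DCK, CMPK1, CDA and DCTD held none of these letters in this window. A match is a run of letters and no evidence of binding.

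Because FPKM is scaled by gene length, levels can be ranked between genes, with a limit where genes share exons. TYMS, RRM2, SLC29A2 and DCK share 39.1%, 20.2%, 10.3% and 6.17% of their exon length with another gene. How reads in shared stretches were counted is not given, and their part in the ranks and in the ratios below was not tested. CDA had the highest mean level in both groups and CMPK1 the next. In Vector the order went on with DCTD, RRM1, SLC29A2, RRM2, DCK, RRM2B, TYMS and SLC29A1. The library ranges of neighbours in that order did not overlap between CDA and CMPK1, CMPK1 and DCTD, RRM2 and DCK, and RRM2B and TYMS, and overlapped for the other 5 pairs of neighbours. In OE-MMP28 the order after CMPK1 was RRM1, DCTD, SLC29A2, RRM2, DCK, TYMS, SLC29A1 and RRM2B, and the ranges were apart only between DCTD and SLC29A2, RRM2 and DCK, and SLC29A1 and RRM2B. RRM2B thus moved from the eighth position to the last. Over all genes tested, mean levels lay between the 63.8th percentile (RRM2B) and the 95.9th percentile (CDA).

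Ratios between members were taken within each library, 4 in all, on FPKM. The ratio of RRM2 to RRM2B, the S-phase against the stress-related small subunit, was 2.05, 1.57 and 2.78 in Vector and 4.21, 3.77 and 4.77 in OE-MMP28. It was higher in every OE-MMP28 library than in every Vector library, with means of 2.13 ± 0.608 and 4.25 ± 0.50 (SD, n = 3 each) and a difference of mean log2 ratios of 1.03. By a two-sided exact permutation test p was 0.1, the smallest that 3 against 3 libraries allow, and 0.2 after Benjamini-Hochberg adjustment over the 4 ratios. The ratio of RRM2 to RRM1, small against large subunit, was 0.726, 0.688 and 0.853 in Vector and 0.624, 0.587 and 0.662 in OE-MMP28. It was lower in all OE-MMP28 libraries, by 0.27 in mean log2 ratio, with the same exact p of 0.1 and adjusted value of 0.2.

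The ratio of CDA to DCK, inactivation against activation of the drug, was 4.18, 7.78 and 4.17 in Vector and 3.08, 5.28 and 7.79 in OE-MMP28. Its spread within each group was large, from lowest to highest library, and the means were 5.38 ± 2.08 and 5.38 ± 2.35 (SD, n = 3 each, two-sided exact permutation p = 1). The ratio of SLC29A1 to SLC29A2 was 0.622, 0.218 and 0.390 in Vector and 0.363, 0.453 and 0.301 in OE-MMP28 (means 0.410 ± 0.203 and 0.372 ± 0.0764, SD, n = 3 each, two-sided exact permutation p = 1). For both of these ratios the sign of the difference turned when single libraries were left out.

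**Figure D2:**
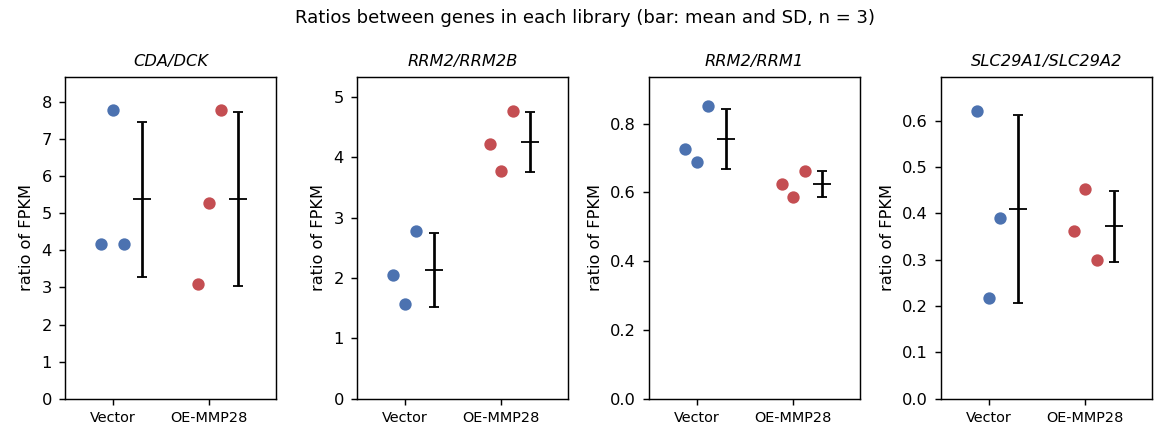
Ratios of FPKM between 4 pairs of genes, 1 point per library (blue, Vector; red, OE-MMP28), with the mean and SD of 3 libraries beside them, all axes from 0. The groups are apart for RRM2/RRM2B (1.57 to 2.78 against 3.77 to 4.77) and for RRM2/RRM1 and overlap for CDA/DCK and SLC29A1/SLC29A2.

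Libraries of a group differed from each other in a patterned way, which was noticed after the values were seen and is given as a description. SLC29A2 and CDA were both highest in Vector replicate 2 among the Vector libraries and in OE-MMP28 replicate 3 among the OE-MMP28 libraries, an arrangement found in 15.3% of all genes tested. DCK, CMPK1, DCTD, RRM1 and RRM2 were lowest in those same 2 libraries, as were 18.5% of all genes tested. In Vector replicate 2, log2 CPM was above the Vector mean by 0.63 for SLC29A2 and by 0.34 for CDA, and differed from it by -0.41 for RRM2, -0.28 for RRM1 and -0.26 for DCK. In OE-MMP28 replicate 3 the deviations from the group mean were 0.22 for both SLC29A2 and CDA and -0.41 for DCK. That these 2 sets of transcripts lay on opposite sides of the group mean in both libraries follows from how they were picked. Vector replicate 2 had the lowest total count of the 6 libraries and OE-MMP28 replicate 3 the highest, and mitochondrial genes took 14.5% and 11.9% of their counts within a range of 8.80% to 14.8%. The part of these in the pattern was not tested.

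**Figure D3:**
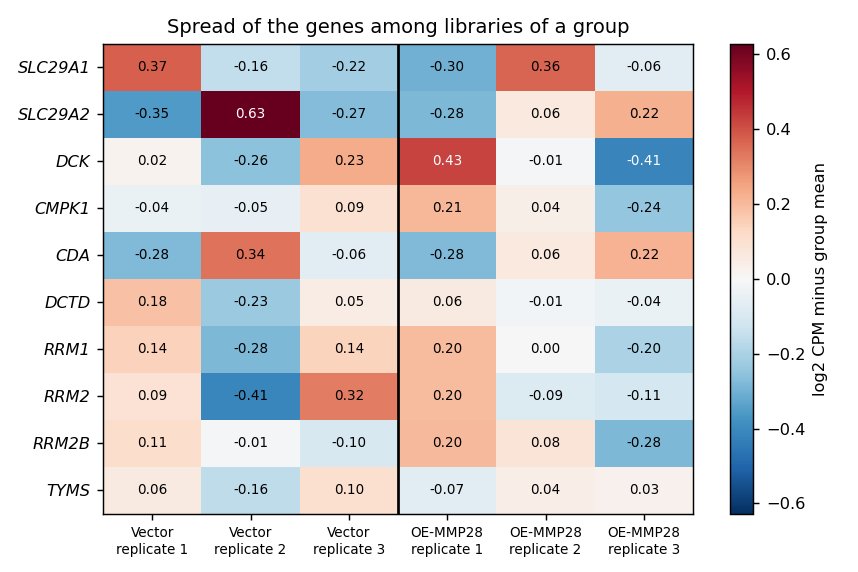
Deviation of each gene's log2 CPM from the mean of its own group in each library (red above, blue below, printed in each cell). In Vector replicate 2 and OE-MMP28 replicate 3 SLC29A2 and CDA are above the group mean while DCK, CMPK1, DCTD, RRM1 and RRM2 are below it.

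The genes whose profiles over the 6 libraries lay closest to each member were found among 10439 protein-coding genes as those with the smallest root mean square difference of log2 CPM, each centred on its own mean. RRM1 lay closest to DLAT (difference 0.0335) and to CHEK1 (0.0418). TYMS lay closest to NDUFC2 (0.0354) and to TIMELESS (0.0390). For RRM2B the closest were FARP2 (0.0474) and SWAP70 (0.0553), which both fell, and for RRM2 they were FOXRED2 (0.0437) and SLC30A5 (0.0477). The closest of all pairs was DCTD with ALG2 (0.0192, then TTI1 at 0.0246), followed by CMPK1 with ACADM (0.0239, then TMLHE at 0.0297). CDA was nearest to SLC16A5 (0.0418) and SH3D21 (0.0420), and DCK to ZNF680 (0.0586) and DEPDC1 (0.0789). SLC29A2 was nearest to KLK11 (0.0598) and PDGFB (0.0785) and SLC29A1 to UPF1 (0.0864) and SENP3 (0.0904), so SLC29A1 had the most distant nearest profile of the 10.

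Each member was set beside the tested genes within 5 Mb of it on its chromosome. The 35 neighbours of RRM2 had a median log2 fold change of -0.40, with 11 that fell and 1 that rose, and 34 of them lay below RRM2 itself. With the median of the neighbours taken as an offset in the edgeR fit, the log2 fold change of RRM2 was 0.71 (edgeR adjusted p = 0.00907). RRM2 thus passed with the offset and not in the fit without an offset. RRM2B showed the opposite. Its 40 neighbours had a median of -0.29, with 8 that fell and 3 that rose, 6 of them lay below RRM2B, and with the offset its log2 fold change was -0.39 (edgeR adjusted p = 0.118). RRM2B thus did not pass the threshold with the offset. Each offset was taken from the fit of these same libraries and entered as a fixed value. Adjusted p-values with an offset therefore leave out the uncertainty of the median and do not test a gene against its surroundings.

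RRM1 and TYMS kept their calls under this offset. The 111 neighbours of RRM1 had a median of 0.011, of which 4 lay above RRM1, and its offset value was 0.59 (edgeR adjusted p = 0.0171). None of the 22 neighbours of TYMS lay above it, their median was -0.055 and its offset value was 0.66 (edgeR adjusted p = 0.0111). SLC29A2 lies among 234 tested neighbours with a median of 0.26, 50 of which rose and 8 fell, and its offset value was 0.018 (edgeR adjusted p = 0.967). The medians around the remaining 5 genes lay between -0.13 (DCTD) and 0.054 (CMPK1). The cause of the shifts around RRM2, RRM2B and SLC29A2 was not tested.

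**Figure D4:**
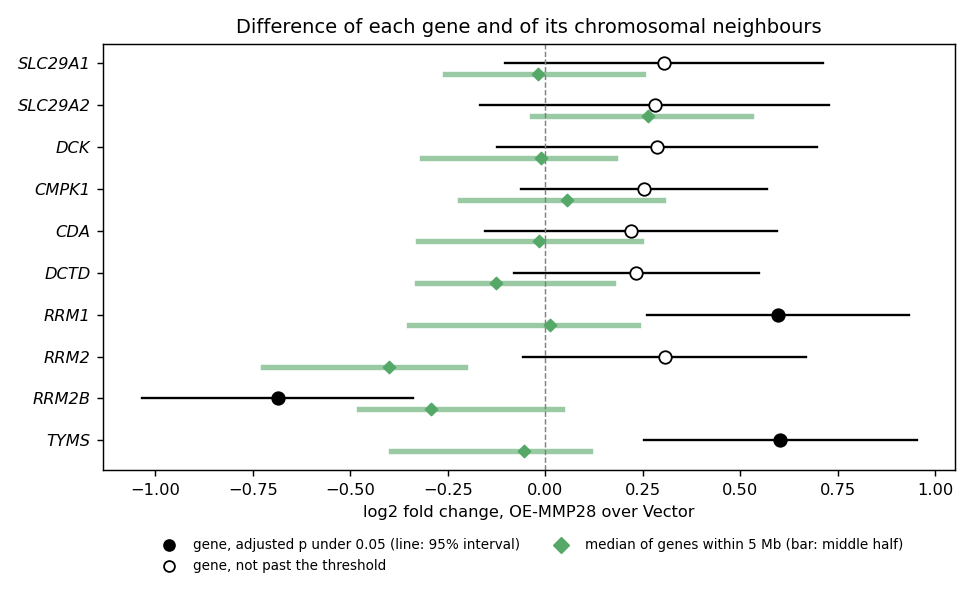
Log2 fold change of each gene, OE-MMP28 over Vector (circles with 95% intervals; filled, edgeR adjusted p under 0.05), and the median over tested genes within 5 Mb (green diamonds; bars, middle 50% of the neighbours). RRM1 and TYMS lie right of their neighbours, RRM2 lies right of neighbours centred on -0.40, and RRM2B lies left of neighbours centred on -0.29.

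To place the 10 genes in their pathway, 7 further lists of 91 genes were counted in the same fit, of which 82 genes were tested, 27 rose and 10 fell. Each of these calls held in 7 (UPP1) to 18 of the alternative fits, up to 18 of which tested the gene, with 8 for CCNE2 and 9 for TFDP2. Over all genes tested 11.7% rose and 11.6% fell, and the counts of each list stand beside these shares without a test. Among the other nucleoside transporters, both tested genes fell and none rose (median log2 fold change -1.61). SLC29A3, which serves lysosomes and mitochondria, was at 2.32, 2.19 and 1.76 FPKM in Vector and 0.50, 0.696 and 0.820 FPKM in OE-MMP28, a log2 fold change of -1.62 (SE 0.24, edgeR adjusted p = 8.5e-05). SLC29A4, a transporter of monoamines and adenosine, fell by 1.60 on the log2 scale at 17, 36 and 29 against 2, 15 and 13 counts (edgeR adjusted p = 0.0279). The concentrative transporters SLC28A1, SLC28A2 and SLC28A3 never exceeded 15 counts in a library and were not tested. In FPKM, SLC29A1 and SLC29A2 were thus the most abundant of the 7 transporter genes considered.

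Of 14 other nucleoside and nucleotide kinases, 3 rose, none fell and 11 did not pass (median log2 fold change 0.10). The 3 belong to the nucleoside diphosphate kinase family, whose classical members add the last phosphate to nucleotides. NME1 rose by 0.62, NME3 by 0.68 and NME7 by 0.82 on the log2 scale (edgeR adjusted p = 0.0139, 0.0210 and 0.00452). The other 3 members of the family on the list, NME2 (0.053), NME4 (0.33) and NME6 (-0.0071), did not pass (edgeR adjusted p = 0.928, 0.184 and 0.983). NME2 had 31 to 76 counts, beside 431 to 1092 for NME1, and a wide interval from -0.61 to 0.71. Overlaps with other genes were listed only for the gemcitabine genes, so their part in these counts was not tested. The thymidine kinase TK1 (0.16, edgeR adjusted p = 0.512), the thymidylate kinase DTYMK (0.33, edgeR adjusted p = 0.123) and the mitochondrial kinase DGUOK (-0.34, edgeR adjusted p = 0.171) did not pass. With the offset for neighbouring genes DTYMK passed (0.67, edgeR adjusted p = 0.00567), DGUOK turned to 0.14 (edgeR adjusted p = 0.637) and NME3 lost its call (0.43, edgeR adjusted p = 0.168).

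Nucleotidases and hydrolases of deoxynucleotides moved in both directions, with 3 that rose, 2 that fell and 4 that did not pass of 9 tested (11 listed, median log2 fold change 0.21). NT5C2, a cytosolic nucleotidase that can remove the phosphate of nucleoside drugs, was at 946, 784 and 846 counts in Vector and 602, 457 and 475 counts in OE-MMP28 and fell by 0.89 on the log2 scale (SE 0.16, edgeR adjusted p = 0.000591). NT5C3A, a pyrimidine nucleotidase, fell by 0.50 (edgeR adjusted p = 0.0199). NT5E, the cell surface enzyme CD73, rose from 53.8 ± 8.49 to 92.4 ± 12.5 FPKM (SD, n = 3 each), a log2 fold change of 0.79 (edgeR adjusted p = 0.00118). DUT, which turns dUTP into the dUMP that TYMS uses, rose by 0.60 (edgeR adjusted p = 0.00680), and DCTPP1, a dCTP pyrophosphatase, by 0.69 (edgeR adjusted p = 0.0109). With the offset NT5C2, NT5C3A and DCTPP1 no longer passed, at -0.44, -0.36 and 0.40 (edgeR adjusted p = 0.0697, 0.114 and 0.157). SAMHD1, which hydrolyses dNTPs and the active form of several nucleoside drugs, was at 119 to 141 counts in Vector and 165 to 185 counts in OE-MMP28 (log2 fold change 0.31, edgeR adjusted p = 0.265).

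In pyrimidine synthesis and breakdown, 1 gene rose, 2 fell and 6 did not pass of 9 tested (12 listed, median -0.011). CTPS1, a CTP synthase, rose by 0.79 on the log2 scale (edgeR adjusted p = 0.00667). The phosphorylases TYMP and UPP1, which split thymidine and uridine, fell by 0.81 and 0.40 (edgeR adjusted p = 0.0192 and 0.0497). CAD, the entry enzyme of the pathway, had a log2 fold change of -0.011 (edgeR adjusted p = 0.970), which became 0.55 with the offset (edgeR adjusted p = 0.0190, local median -0.56). UPP1 lost its call there (-0.30, edgeR adjusted p = 0.176).

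Efflux pumps of the ABC family, which export conjugates and some nucleotide analogues, were split as well, with 2 that rose, 2 that fell and 4 that did not pass of 8 tested (9 listed, median log2 fold change 0.031). ABCC2 fell from 17.4 ± 1.18 to 7.13 ± 0.495 FPKM (SD, n = 3 each), a log2 fold change of -1.28 (SE 0.15, edgeR adjusted p = 4.53e-06), and ABCC4, which can export nucleoside monophosphates, fell by 2.16 (SE 0.36, edgeR adjusted p = 0.000246) at 100, 56 and 90 against 33, 15 and 12 counts. ABCC1 and ABCC3 each rose by 0.64 (edgeR adjusted p = 0.00393 and 0.0122), and with the offset ABCC1 lost its call (0.37, edgeR adjusted p = 0.0941) while ABCC5 passed as lower (-0.51, edgeR adjusted p = 0.0260). ABCG2, the most abundant pump of the list, had a log2 fold change of 0.26 (edgeR adjusted p = 0.212).

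The regulators and companions of DNA precursor genes were counted last. Of 13 genes for E2F factors, their DP partners and pocket proteins, 5 rose and 2 fell (median log2 fold change 0.22). E2F1, E2F7 and E2F8 rose by 0.61, 0.66 and 0.84 on the log2 scale and the partners TFDP1 and TFDP2 by 0.49 and 0.53, while E2F5 fell by 0.73 and the pocket protein RBL2 by 0.89 (edgeR adjusted p between 0.00123 and 0.0247 for these 7). With the offset TFDP2, whose 35 neighbours had a median of 0.71, turned to -0.18 (edgeR adjusted p = 0.514), and E2F5 no longer passed (-0.37, edgeR adjusted p = 0.285). Of 27 S-phase genes, 13 rose, none fell and 14 did not pass, with a median log2 fold change of 0.50. MCM2, a subunit of the replicative helicase, rose most in the fit without an offset, by 1.15 (SE 0.18, edgeR adjusted p = 0.000112), at 728, 451 and 611 counts in Vector against 1348, 1746 and 1266 in OE-MMP28. MCM5 rose by 0.80 and the sliding clamp PCNA by 0.71 (edgeR adjusted p = 0.00104 and 0.00289). The others that rose were MCM3, CDC6, CDC45, GINS1, GINS3, CCNE2, FEN1, RFC4, UHRF1 and CLSPN, with log2 fold changes from 0.47 to 0.87. The proliferation markers MKI67 (-0.11, edgeR adjusted p = 0.606) and TOP2A (0.19, edgeR adjusted p = 0.400) did not pass. With the offset 14 S-phase genes rose, of which 5 were gained while 4 of the earlier calls were lost. Over all 15319 genes tested, 1136 rose with the offset. MCM2 was then at 0.61 beneath GINS3 at 1.17, and MKI67 turned to 0.45 and passed (edgeR adjusted p = 0.0387). With the replicate block added to the offset, MKI67 was at 0.44 and did not pass (edgeR adjusted p = 0.0501). MKI67 was called in 1 of 18 alternative fits. Without an offset, the log2 fold changes of all 27 S-phase genes ranged from -0.19 (CDT1) to 1.15 (MCM2). RRM1 and TYMS, at 0.60 each, and RRM2, at 0.31, lay within this range. SLC29A1, SLC29A2, DCK, CMPK1, CDA and DCTD, at 0.22 to 0.30, lay within it too, so it does not set RRM1, TYMS and RRM2 apart. RRM2B, at -0.69, lay below it. The share of cells in S phase was not measured here.

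**Figure D5:**
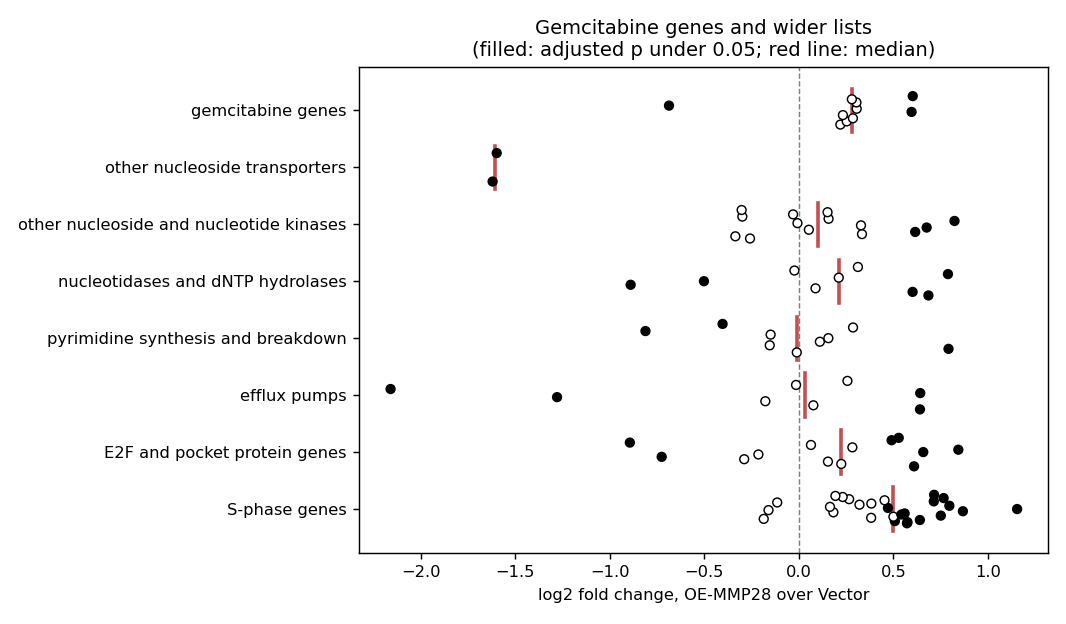
Log2 fold change, OE-MMP28 over Vector, of every tested gene of the 10 gemcitabine genes and of 7 further lists, 1 point per gene (filled, edgeR adjusted p under 0.05; red lines, list medians). The S-phase genes have a median of 0.50 with 13 of 27 filled and none of those below 0, whereas filled points of the nucleotidase, pyrimidine, pump and E2F lists lie on both sides.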

How the data were processed

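RNA of 6 AsPC-1 libraries was analysed, 3 from the Vector group and 3 from the OE-MMP28 group, grouped by the sample titles. Per the labels, libraries were made with the NEBNext Ultra RNA kit, and the submitters' processing notes name HISAT2 2.0.5 and featureCounts 1.5.0-p3. The strand setting and the handling of reads that match several places are not given in the sources used here. The authors deposited 1 table with read counts per gene and FPKM. The counts were whole numbers that were neither normalised nor pooled, and the FPKM were scaled by the authors to gene length and library size. The library size that the FPKM imply differed from the counted total by -2.01% to 2.02%. The same table held fold changes and p-values of the authors' own comparison, which were not used. Unmapped per-sample columns numbered 0. All 58735 gene coordinates matched GENCODE release 29 (GRCh38), and promoters came from RefSeq.

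Counts were tested with edgeR 4.0.16 in R 4.3.3 (quasi-likelihood test, filterByExpr at min.count 10 and min.total.count 15, TMM scaling, group only), with Benjamini-Hochberg adjustment over 15319 genes and a threshold of 0.05. Log2 CPM used a prior count of 2. Ratios were compared by two-sided exact permutation tests in SciPy 1.17.1. Members, lists and tests were chosen with earlier results of these data known. Named genes were the 10 members, MMP28, the genes of the 7 lists past the threshold with at most 3 others per list, and the 2 nearest profiles per member. Some genes that the rule covers are given only in counts.

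The 18 alternative fits left out each library in turn, added the replicate number as a block, changed the scaling (upper-quartile, DESeq2 size factors), the filter (none, or a mean of at least 1 FPKM) or the test (DESeq2 1.42.0, limma 3.58.1 voom, limma on log2(FPKM + 1) and log2(FPKM + 0.1)), removed mitochondrial genes, or took the median log2 fold change of tested genes within 5 Mb as an offset, also with the block. No 2 libraries were duplicates, with a chi-square per degree of freedom of 13.9 to 28.0 within groups and 37.8 to 67.2 between groups. The scripts were tested on simulated data.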

Additional observations from a re-analysis of the deposited data

How the results depend on the processing

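No member changed direction in any of the 18 alternative fits, and MMP28 passed in all, with log2 fold changes of 0.69 to 1.05 when single libraries were left out. Of the 10 genes, 0 to 2 rose and 1 fell without single libraries, with 0 that rose without OE-MMP28 replicate 2. The 2 that rose without Vector replicate 2 were RRM1 and SLC29A2 (edgeR adjusted p = 0.0467 and 0.00902), while TYMS did not pass (edgeR adjusted p = 0.0507). Under limma on log2(FPKM + 1) and on log2(FPKM + 0.1), 1 rose in each. With the local-median offset 3 rose and 0 fell, and 3 rose and 0 fell with this offset and the replicate block. Over all genes, 985 to 1916 rose and 1044 to 1949 fell without single libraries (lowest for both without OE-MMP28 replicate 2, and 1136 rose without Vector replicate 3), 1009 and 1000 rose and 965 and 970 fell under limma with pseudocounts of 1 and 0.1, and 1136 rose with the offset. In the wider lists 14 to 29 rose and 6 to 9 fell without single libraries (17 and 6 without Vector replicate 3, 14 and 6 without OE-MMP28 replicate 2), and limma gave 17 and 16 that rose and 5 and 5 that fell. The difference of log2 CDA/DCK ranged from -0.35 to 0.32 and turned positive without Vector replicate 2 (0.27) and without OE-MMP28 replicate 1 (0.32). That of SLC29A1/SLC29A2 ranged from -0.42 to 0.33 and turned positive without Vector replicate 1 (0.33) and without OE-MMP28 replicate 3 (0.11). Fewer libraries were fitted where 1 was left out, and the cause of the other changes was not tested. Same-numbered libraries did not deviate together (r = 0.017, 0.0080 and -0.088 across genes). Between unlike numbers r reached 0.17, for Vector replicate 3 with OE-MMP28 replicate 1. As deviations are taken from means of 3 libraries, these values cannot show whether same-numbered samples were prepared together. With the replicate block 2 members rose and 1 fell, with edgeR adjusted p of 0.00469 for RRM1, 0.00216 for RRM2B and 0.0143 for TYMS.

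With 3 libraries per group, differences of the size estimated for the 7 genes that did not pass had intervals that include 0, so neither their presence nor their absence was shown here.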
